A study of Mus musculus with 37 samples.

Results

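The genes described here are 10 early-induced genes, Fos, Fosb, Jun, Junb, Jund, Atf3, Egr1, Ier2, Ier3 and Btg2, chosen by symbol and all found among the 23947 genes of the table. Their values were read in 37 single cells. The cells came from male C57BL/6J mice fed a high-fat diet, with 60% of the energy from fat, 20% from carbohydrate and 20% from protein, and were sorted out of epididymal white fat (eWAT). The labels call every cell an adipose tissue macrophage and put no cell in a second group. The mice are described as age-matched, with no age given, and no animal is named for any cell, so the 37 cells counted as 1 sample and no p-value was made from them. The tissue was minced and digested with collagenase for 30 min at 37° C before staining and sorting. Undigested cells were not analysed here.

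Immediate early genes are switched on within minutes of a stimulus by factors already present in the cell, without new protein synthesis. Fos and Fosb encode Fos proteins and Jun, Junb and Jund encode Jun proteins, and a Fos protein binds DNA as AP-1 only when paired with a Jun protein, whereas Jun proteins can also pair with each other. Atf3 encodes a related leucine zipper factor of the stress response that pairs with Jun proteins, and Egr1 a zinc finger factor. Ier2 and Ier3 encode early response proteins, Ier3 with a role in cell survival, and Btg2 encodes an antiproliferative protein that recruits the CCR4-NOT complex, which shortens the poly(A) tails of mRNA. In macrophages these genes respond to microbial products, cytokines, adhesion and mechanical or thermal stress, and they are well known to respond to tissue dissociation.

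Promoter sequences are shown for the 6 of these genes that hold a cAMP response element (CRE), its half-site or the AP-1-like site TGACATCA, because CREB, ATF and AP-1 proteins are known to bind such motifs. Entries of the RefSeq table (build GRCm38.p6) were matched for 8 of the 10 genes; Egr1 and Ier2 are not shown. Each sequence is the 200 bases before the annotated start, 5′ to 3′ on the gene's strand, with the motif matches in capitals. The windows are chr12:85473690-85473889 (+) for Fos, chr7:19310046-19310245 (-) for Fosb, chr4:95052223-95052422 (-) for Jun, chr8:84978749-84978948 (-) for Junb, chr1:191183334-191183533 (-) for Atf3 and chr1:134079156-134079355 (-) for Btg2.
Fos: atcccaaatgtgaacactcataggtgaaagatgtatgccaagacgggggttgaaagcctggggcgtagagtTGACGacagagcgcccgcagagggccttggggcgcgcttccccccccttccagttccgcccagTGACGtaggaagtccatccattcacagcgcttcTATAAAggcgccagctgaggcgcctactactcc
Fosb: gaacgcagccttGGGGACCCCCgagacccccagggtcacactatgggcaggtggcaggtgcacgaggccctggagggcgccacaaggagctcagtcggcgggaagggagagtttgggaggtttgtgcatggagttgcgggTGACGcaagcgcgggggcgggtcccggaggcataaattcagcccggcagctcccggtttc
Jun: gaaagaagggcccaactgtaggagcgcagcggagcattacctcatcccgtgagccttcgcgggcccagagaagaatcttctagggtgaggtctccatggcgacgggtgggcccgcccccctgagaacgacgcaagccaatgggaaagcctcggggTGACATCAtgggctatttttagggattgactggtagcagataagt
Junb: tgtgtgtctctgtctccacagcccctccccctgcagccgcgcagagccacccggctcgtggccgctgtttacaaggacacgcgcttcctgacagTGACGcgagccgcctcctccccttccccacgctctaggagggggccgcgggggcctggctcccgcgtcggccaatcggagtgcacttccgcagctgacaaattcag
Atf3: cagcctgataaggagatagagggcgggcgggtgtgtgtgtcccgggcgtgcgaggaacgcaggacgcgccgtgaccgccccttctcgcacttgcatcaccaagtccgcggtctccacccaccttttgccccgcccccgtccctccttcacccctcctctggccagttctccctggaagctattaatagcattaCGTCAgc
Btg2: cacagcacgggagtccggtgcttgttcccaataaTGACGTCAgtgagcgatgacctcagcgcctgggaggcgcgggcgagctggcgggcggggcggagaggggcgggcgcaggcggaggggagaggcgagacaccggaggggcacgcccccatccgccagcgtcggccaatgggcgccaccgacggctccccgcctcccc
The motifs searched on both strands were the CRE half-site TGACG, the full CRE TGACGTCA, the AP-1 site TGACTCA, the AP-1-like site TGACATCA, the TATA box TATAAA, and the CArG box and the NF-kB site by name. The half-site lay in 5 of the 8 windows, at 129 and 66 bases before the start of Fos, 60 before Fosb, 106 before Junb, 7 before Atf3 and 166 before Btg2, where it is part of a full CRE. Of all 32851 promoter windows of this length in the table, 15.7% held the half-site and 1.47% the full CRE. Jun had TGACATCA 45 bases before its start, a sequence found in 2.66% of windows. The remaining capitals mark TATAAA at 33 bases before the start of Fos (9.96% of windows) and an NF-kB site match at 188 bases before Fosb (4.11%). TGACTCA (3.66% of windows) and the CArG box (1.18%) were in none of the 8 windows, which include those of Jund and Ier3. Bases farther than 200 from the start were not searched, so these motifs may lie there. Nothing is said of Egr1 and Ier2. A match is a description of the letters and not of binding.

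The deposited values are FPKM, in which fragments are divided by transcript length, so that genes can be set side by side within a cell. They are also scaled for the size of each library, in a way that the labels do not state. A gene was called detected at 1 FPKM or more. The FPKM sum of a cell ranged from 225528 to 1841670 (median 326230), and 3 cells (2, 24 and 26) exceeded 1000000. Genes detected per cell ranged from 1224 to 3204. The number of fragments behind a value is not in the table, and an exact 0 can be a failed estimate, since Gapdh was listed at 0 in 2 cells and Hprt in 6. The macrophage genes Lyz2 and C1qb were detected in all 37 cells, and at least 8 of 12 macrophage genes in every cell. Cells 7 and 27 also held 7 and 8 of 8 fibroblast and progenitor genes, with these genes summing to 7186 and 11407 FPKM against at most 604 FPKM in the other 35 cells. Their 12 macrophage genes summed to 331 and 139 FPKM, against 8505 to 47509 FPKM elsewhere. No cell held 3 genes of the other 10 lists of other cell types. Both values are given where, without cells 7 and 27, a median moved by over 1.5 times or a listed pair or counted gene fell below its limit.

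Of the 10 genes, 9 were detected in at least 19 of the 37 cells, where 4.03% of all genes of the table were. At 10 FPKM or more, 5 of the 10 (Fos, Junb, Jun, Atf3 and Btg2) were present in at least 19 cells, against 2.2% of all genes. Both shares of all genes include 12368 genes at 0 in every cell. The 10 genes were chosen with earlier results of these data known. Fos and Junb stood highest, with Jun, Atf3 and Btg2 in the middle, and Jund, Egr1, Fosb, Ier3 and Ier2 lowest by median FPKM. The order of the medians was loose. For each of the 9 pairs of neighbours in it, the quartiles of the difference within cells, on the log2(FPKM + 1) scale, spanned 0. Fos exceeded Junb in 22 cells and was below it in 15, and Junb exceeded Jun in 25 cells. Jun was above Atf3 in 16 cells and below it in 21, although its median was the higher one. With each cell rescaled to sum to 1000000 the order changed in part, with Btg2 above Jun and Fosb above Egr1.

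**Figure D1:**
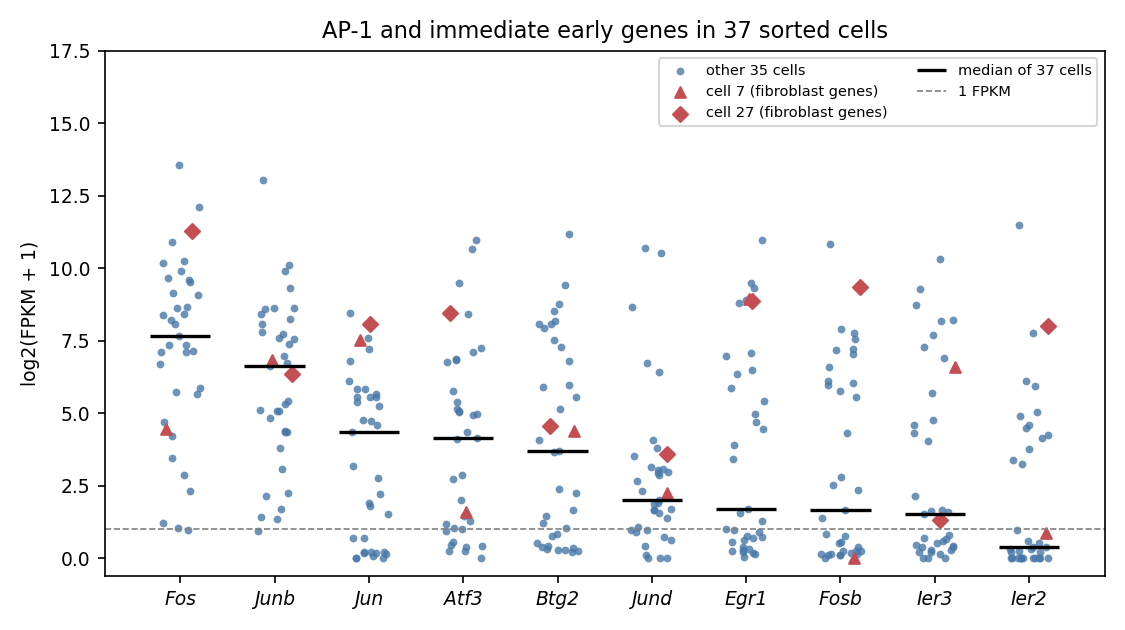
Level of each of the 10 genes in the 37 cells; the vertical axis is log2(FPKM + 1), with genes ordered by median (black bar) and the dashed line at 1 FPKM. Circles are 35 cells, and the triangle and diamond are cells 7 and 27, which hold fibroblast genes; Fos and Junb have 1 cell each below the line, Jund has 18 cells between 1 and 10 FPKM, and Fosb, Egr1, Ier2 and Ier3 have few cells in that range.

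Fos, the best known AP-1 component, was at 0.980 FPKM in its lowest cell, 199.8 FPKM at the median and 12042 FPKM in its highest. It was detected in 36 cells (97.3%, exact Clopper-Pearson 95% interval 85.8% to 99.9%) and reached 100 FPKM in 25. Only 5 cells were below 10 FPKM, namely cell 3 at 6.40, cell 4 at 1.35, cell 5 at 1.09, cell 14 at 4.0 and cell 18 at 0.980 FPKM. The intervals here and below cover only the drawing of cells and leave out differences between animals. The highest cells were 26, 15 and 27, the last 2 at 4406 and 2473 FPKM. Cell 26 had one of the 3 largest FPKM sums, and it still led with each cell's values rescaled to sum to 1000000, though less clearly (9887, beside 7498 in cell 15).

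Fosb, whose protein takes the same place in the AP-1 dimer, was far less even. Values ran from 0 to 1806 FPKM with a median of 2.16 FPKM. It was detected in 20 cells (54.1%, 36.9% to 70.5%). The cells fell mostly at 2 ends, with 17 below 1 FPKM, 15 at 10 FPKM or more and 5 between. Fos had the larger value of the pair in 32 cells, and Fosb in 5. In cell 2 Fosb stood at 1806 FPKM beside 141 FPKM of Fos, in cell 9 at 46.4 beside 24.9, and in cell 36 at 53.6 beside 17.7. In the other 2, cells 5 and 18, neither gene passed 6.03 FPKM.

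Among the Jun genes, Junb had the highest level. It ranged from 0.935 to 8348 FPKM with a median of 98.7 FPKM, and it was detected in 36 cells, 18 of them at 100 FPKM or more. Its highest values were in cells 2, 11 and 0, the last 2 at 1106 and 953 FPKM. Cell 2 thus stood 7.55 times above the next cell. After rescaling to 1000000 it still led, but the gap narrowed to 7481 against 4226 in cell 0.

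Jun, the founding member of the family, ranged from 0 to 347 FPKM with a median of 19.6 FPKM and was detected in 25 cells (67.6%, 50.2% to 82.0%). It was at 10 FPKM or more in 19 cells and below 1 FPKM in 12. Cells 7 and 27, which hold fibroblast genes, had 185 and 272 FPKM, among the highest values. Without them the median of Jun was 7.98 FPKM, and the part of the second cell type in the level was not tested.

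Jund is generally regarded as the constitutive Jun gene. It was detected in 27 cells (73.0%, 55.9% to 86.2%), yet 18 of these were between 1 and 10 FPKM and its median was 2.99 FPKM. Cells 2, 24 and 17 stood far above the rest, at 1666, 1489 and 403 FPKM, and no other cell passed 106 FPKM. Cells 2 and 24 were among the 3 with the largest FPKM sums, and rescaled to 1000000 their values were 1493 and 809, beside 1160 in cell 17.

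Every cell held at least 1 Fos gene and at least 1 Jun gene at 1 FPKM or more (37 of 37, 90.5% to 100%). At 10 FPKM this was so in 30 cells (81.1%, 64.8% to 92.0%). Of the rest, 2 cells had only a Fos gene at that level, 4 only a Jun gene and 1 neither. All 3 Jun genes were detected in 17 cells, exactly 2 of them in 17 and 1 in 3, and all 5 Fos and Jun genes in 10 cells.

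The Jun gene with the most transcript differed from cell to cell. Junb led in 23 cells (62.2%, 44.8% to 77.5%), Jun in 11 (29.7%, 15.9% to 47.0%) and Jund in 3 (8.11%, 1.70% to 21.9%). Cells 7 and 27 were both led by Jun, which led 9 of the other 35. Often a single gene made up nearly the whole sum of the 3. Junb held at least 90% of it in 10 cells, Jun in 3 (cells 4, 26 and 30) and Jund in 1 (cell 24, 98.5%). In cell 26, with the highest Fos value, Jun stood at 194 FPKM and Junb at 1.54 FPKM. In cell 2 the summed Jun genes reached 10033 FPKM beside 1947 FPKM for Fos and Fosb, while in cell 26 the 2 sums were 196 and 12173 FPKM. In cells 6 and 10, also led by Jund, all 3 Jun genes were low, with sums of 10.6 and 4.98 FPKM.

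**Figure D2:**
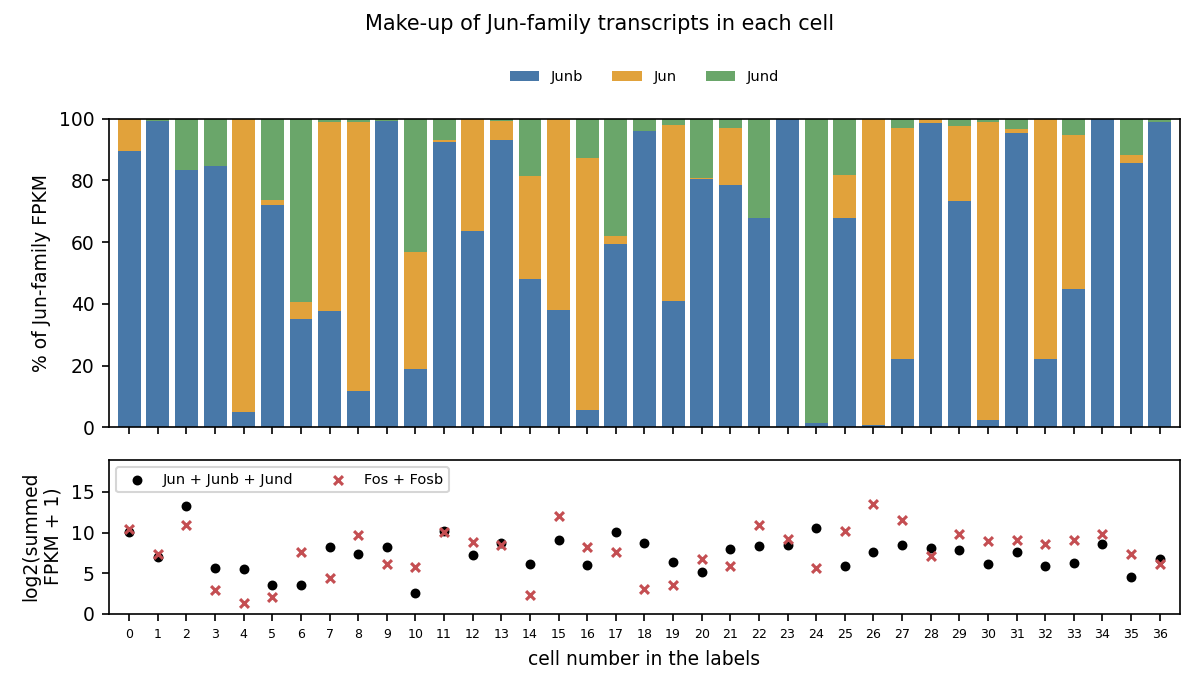
Upper panel, share of Junb, Jun and Jund in the summed FPKM of the 3 genes (vertical axis, percent) in each cell by its number; lower panel, summed Jun-family and Fos-family levels as log2(FPKM + 1). Junb is the largest share in 23 cells, Jun in 11 and Jund in 3, and cells 2 and 26 hold the highest Jun-family and Fos-family sums.

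Atf3 and Egr1 were each high in part of the cells. Atf3 ranged from 0 to 1994 FPKM with a median of 16.7 FPKM, was detected in 28 cells (75.7%, 58.8% to 88.2%) and was at 10 FPKM or more in 20. Its highest cells were 12, 25 and 0, at 1994, 1622 and 716 FPKM. Egr1 ranged from 0.0405 to 2019 FPKM with a median of 2.24 FPKM and was detected in 22 cells (59.5%, 42.1% to 75.2%). It was at 10 FPKM or more in 17 cells and below 1 FPKM in 15, and its highest cells were 15, 13 and 29. Of the 3 cells with the most Atf3, cells 12 and 25 had Egr1 at 0.466 and 0.129 FPKM, while cell 0 had it at 480 FPKM.

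Ier2 was the least detected of the 10. It was listed at 0 in 12 cells, had a median of 0.315 FPKM and was detected in 14 cells (37.8%, 22.5% to 55.2%). Its highest value, 2897 FPKM in cell 2, was far above the next, 254 FPKM in cell 27. Rescaled to 1000000, the highest values were 2596 in cell 2 and 828 in cell 13. Ier3 was detected in 20 cells (54.1%) with a median level of 1.86 FPKM, and had its highest values in cells 2, 29 and 12 (1264, 628 and 425 FPKM). Btg2 was detected in 26 cells (70.3%, 53.0% to 84.1%) with a median level of 12 FPKM and reached 2298 FPKM in cell 15. It was at 10 FPKM or more in 20 cells and below 1 FPKM in 11, so few cells lay between.

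Values of all 10 genes varied widely between cells. Their standard deviations over cells ran from 2.68 (Jund) to 3.54 (Egr1) on the log2(FPKM + 1) scale. The median over the 2388 genes detected in at least 10 cells was 2.55, and each of the 10 genes was above it. Egr1 varied more than 94.4% of those genes, Btg2 more than 89.4%, Fosb more than 89.1% and Jund more than 58.9%.

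**Figure D3:**
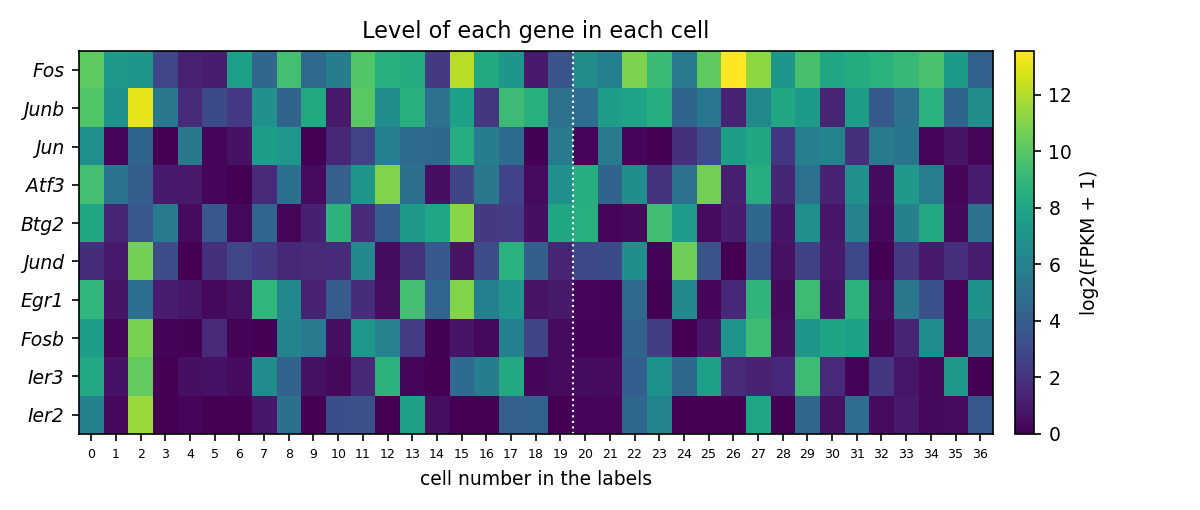
Level of each gene (rows, ordered by median) in each cell (columns, by cell number), coloured by log2(FPKM + 1); the dotted line separates cells 0 to 19 from cells 20 to 36. Cell 2 is high in all 10 genes, cells 0, 27 and 29 in 9, and cells 4, 5 and 6 are low in nearly all.

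The number of the 10 genes at 10 FPKM or more ran from 1 to 10 per cell, with a median of 5. Cell 2 had all 10 at this level and cells 0, 27 and 29 had 9. Cells 4, 5 and 6 had 1 each, which was Jun at 41.3 FPKM in cell 4, Btg2 at 11.7 FPKM in cell 5 and Fos at 199.8 FPKM in cell 6. The 10 genes summed to between 26.2 FPKM (cell 5) and 16200 FPKM (cell 2), with a median of 870 FPKM. As a share of a cell's FPKM sum they made up 0.0100% in cell 5 and at most 1.88%, in cell 0, which had the lowest FPKM sum of all cells. Cell 0 held Fos at 1172, Junb at 953, Atf3 at 716 and Egr1 at 480 FPKM. Cell 15 combined high Fos, Btg2 and Egr1 (4406, 2298 and 2019 FPKM) with Ier2 listed at 0 and Fosb at 0.711 FPKM.

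The mean level of the 10 genes, taken as the mean of log2(FPKM + 1) and called the score below, showed little relation to the FPKM sum (Spearman rho 0.07, Pearson r 0.23) or the number of genes detected (rho -0.01, r 0.08). For genes listed above 0 per cell, rho was -0.16. These and the correlations that follow are descriptions over 37 cells made with the same kit, whose depth is unknown and for which the labels name no chip or batch.

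The genes did not rise and fall as 1 block. Over the 45 pairs the mean rho was 0.21 (SD over pairs 0.19), beside a mean of 0.04 over all pairs of the 2388 genes. A rho of 0.4 or more was found for 10 of the 45 pairs, against 1.63% of all pairs, and 6 pairs were below 0. Fos went with Atf3 (rho 0.53, r 0.47), Fosb (0.52, r 0.42), Ier3 (0.46, r 0.36) and Jun (0.41, r 0.37). Ier2 went with Fosb (0.52, r 0.63), Junb (0.45, r 0.57) and Egr1 (0.43, r 0.49, and 0.39 without cells 7 and 27). The other 3 pairs were Jun with Ier3 (0.44), Jun with Egr1 (0.42, and 0.33 without cells 7 and 27) and Fosb with Junb (0.42). All cells with Atf3 at 10 FPKM or more, 20 in number, also had Fos at that level, where the product of their shares gives 17.3. All 15 cells with Fosb at 10 FPKM also had Fos (12.97 from the product), and Fosb and Ier2 met in 9 cells (4.86). Fos itself was at that level in 32 cells. Nearer to the product were Fos and Jun, which met in 17 cells (16.4), and Fosb and Junb, in 13 (12.2).

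Jun and Junb showed no positive relation (rho -0.19, r -0.09), nor did Jun and Jund (rho -0.16, r -0.11), while Junb and Jund had rho 0.27. Over all cells Jund and Btg2 were the least tied to the others. Their rho with the mean of the other 9 genes was 0.21 and 0.20, compared with 0.57 for Egr1, 0.54 for Atf3, 0.48 for Fos and 0.29 to 0.47 for Ier2, Fosb, Junb, Ier3 and Jun. Btg2 had rho 0.40 with Egr1 and 0.34 with Atf3 but 0.02 with Fos.

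The cells were also taken by number as 0 to 19 and 20 to 36, a division that the labels do not give. The mean rho over pairs was 0.27 in the first part and 0.13 in the second. Only 3 pairs had a rho of 0.4 or more in both, Fos with Fosb (0.49 and 0.55), Fosb with Ier2 (0.49 and 0.59) and Egr1 with Ier2 (0.48 and 0.43). The rho of Fos with Atf3 was 0.66 and 0.35, that of Fosb with Junb 0.63 and 0.10, and that of Jun with Junb -0.03 and -0.49. Jun and Ier3, at 0.55 and 0.59 with the mean of the other 9 genes in the first part, were at -0.10 and -0.09 in the second. Jund and Btg2, at 0.10 and 0.17 in the first, were at 0.39 and 0.31 in the second, above Fos (0.30) and Junb (0.16) there. By part, the median was higher in the second for Fos (139.9 and 400.0 FPKM), Atf3 (11.3 and 32.4), Btg2 (11.8 and 22.8), Fosb (1.44 and 4.78), Jund (2.84 and 4.02) and Ier3 (0.607 and 2.12). It was lower there for Jun (24.5 and 3.65 FPKM), Egr1 (8.19 and 1.92), Junb (106 and 80.3) and Ier2 (0.341 and 0.315). The mean of log2(FPKM + 1) was instead lower in the second part for Btg2 (4.16 and 3.90), Jund (2.95 and 2.58) and Ier3 (3.12 and 2.96). For the other genes it went the same way as the median. The difference between the parts was not tested. Without cells 7 and 27 the mean rho was 0.20.

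**Figure D4:**
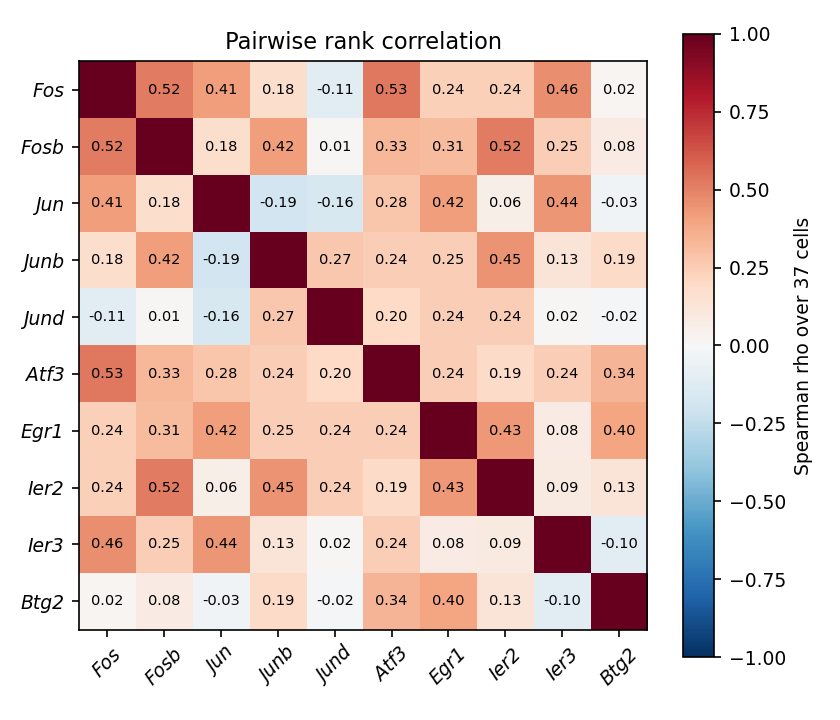
Spearman rho over the 37 cells for each pair of the 10 genes, printed in each square and coloured from blue (-1) to red (1). Fos with Atf3, Fos with Fosb and Fosb with Ier2 have the highest values (0.53, 0.52 and 0.52), and Jun with Junb the lowest (-0.19).

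The genes outside the 10 whose values most resembled the score were feedback regulators, a chemokine and 2 genes of other kinds. Among 2378 genes detected in at least 10 cells, 6 had a rho of 0.5 or more with the score (0.252%), and these are the highest of many values. F13a1, the A chain of coagulation factor XIII, had rho 0.65 (r 0.53) and was detected in 16 cells. Socs3, an inhibitor of cytokine signalling, had rho 0.57 (r 0.65), Dusp1, a phosphatase that switches off MAP kinases, 0.56 (r 0.48), and Zfp36, which destabilises cytokine mRNA, 0.56 (r 0.51). Gda, guanine deaminase, and Cxcl1, a neutrophil-attracting chemokine, had rho 0.53 and 0.50. Nfkbiz, an NF-kB cofactor, Kdm6b, a histone demethylase, Ccnl1, a cyclin linked to splicing, and Klf6, a zinc finger factor, followed at 0.49, 0.49, 0.48 and 0.47. Without cells 7 and 27, 9 genes were at 0.5 or more, among them 5 of these 6. Cxcl1 was at 0.46 without those cells and at 0.43 with values rescaled to 1000000, where Zfp36 also fell just below the limit (0.499). Socs3 was detected in only 14 cells and was highest in cell 27, with rho 0.53 without cells 7 and 27. The rho of Gda was 0.57 in cells 0 to 19 and 0.27 in cells 20 to 36.

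At the other end, 8 genes had a rho of -0.5 or less (0.336%), and these are the lowest of many values. Prkcd, a protein kinase C, had rho -0.59, Tyrobp, a signalling adaptor of myeloid receptors, -0.57, Sec11c, of the signal peptidase, -0.56, Ctss, a lysosomal protease, -0.56, and Gpr137b-ps -0.54. Tyrobp and Ctss were detected in all 37 cells, at medians of 1637 and 1311 FPKM. For these 2 the rho stayed at -0.55 and -0.54 without cells 7 and 27, and was -0.64 and -0.62 in cells 0 to 19 and -0.49 and -0.58 in cells 20 to 36.

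**Figure D5:**
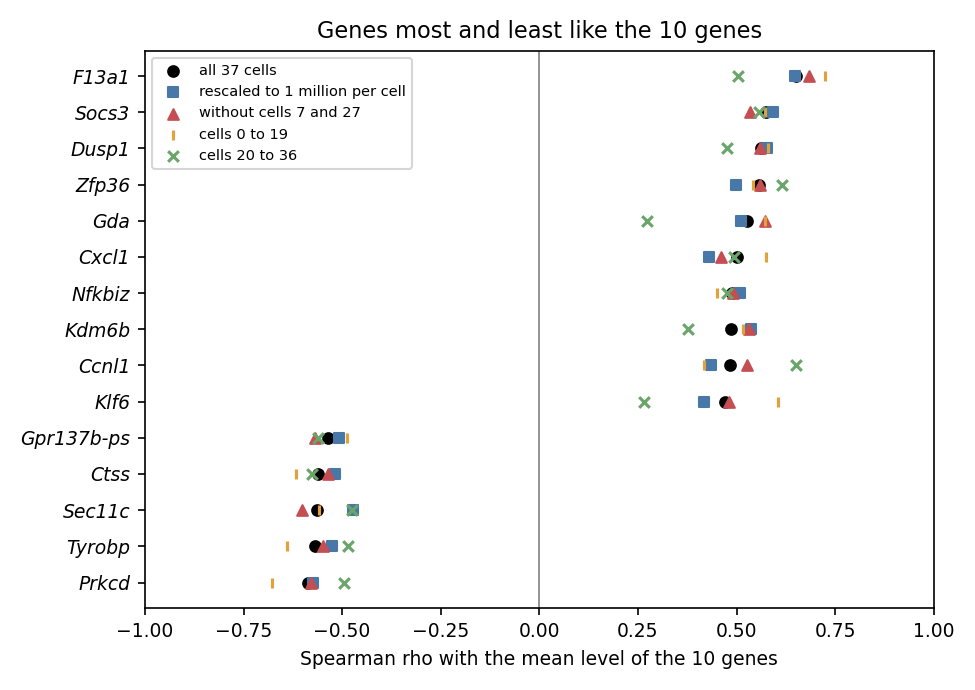
Spearman rho of the 10 most and 5 least similar genes with the mean level of the 10 early-induced genes (horizontal axis), over all cells and in 4 other settings marked by symbol. F13a1 has the highest value over all cells (0.65) and Prkcd the lowest (-0.59), and every symbol lies on the same side of 0 as the value over all cells. The genes were chosen by that value and the other settings use the same cells, so a shared side is partly built in.

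Each gene also had its own nearest neighbours among the 2378 genes. Fos went with Zfp36 (rho 0.60, r 0.54) and Wnk1, a kinase of ion transport (0.59, r 0.56). Fosb went with Nfkbiz (0.55, r 0.51) and F13a1 (0.50, r 0.41). Jun went with Nufip2 (0.55, r 0.45) and Ccl2, the monocyte chemokine (0.51, r 0.42), whose highest value was in cell 7. Without cells 7 and 27 the rho values were 0.49 and 0.44. Junb went with Rp2h (0.57, r 0.50) and the splicing kinase gene Clk4 (0.51, r 0.36), both detected in few cells (11 and 10). Jund went with the kinase gene Taok3 (0.64, r 0.44) and the sphingolipid desaturase gene Degs1 (0.59, r 0.38). Atf3 went with Clk4 (0.53, r 0.49). Egr1 was nearest to Mt1, a metallothionein (0.57, r 0.49), and Rnase4 (0.49, r 0.45). Ier2 was nearest to Socs3, at the highest value of this comparison (rho 0.66, r 0.69, and rho 0.73 and 0.61 in the 2 parts). Each was detected in 14 cells, with Ier2 listed at 0 in 12 cells and Socs3 in 17, so many tied and low values enter this rho. Next to Ier2 came Cyp27a1, a sterol hydroxylase (0.49, r 0.28), detected in 13 cells. Ier3 went with the DNA demethylase gene Tet3 (0.59, r 0.40), detected in 13 cells, and Gda (0.58, r 0.57). Btg2 went with Klf13 (0.47, r 0.49) and Impact (0.46, r 0.52). For Btg2 and Klf13 the rho was 0.12 in cells 0 to 19 and 0.75 in cells 20 to 36.

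Lists of related genes were set against the score by the count at rho 0.3 or more, where 3.15% of the 2378 genes stood, and by their median rho, which was -0.04 over those genes. The lists were chosen with earlier results of these data known, so their counts are not independent of these data. Of the 16 early-induced feedback genes, 13 were detected in at least 10 cells, and 6 of these were at rho 0.3 or more (median 0.24). Besides Dusp1 (median 398 FPKM) and Zfp36 (125 FPKM), Nfkbia, the NF-kB inhibitor, had a median of 337 FPKM and rho 0.36, and Dusp4 was listed at 0 in all cells. Of the 14 other early-induced transcription factors, 7 could be compared and 3 were at rho 0.3 or more (median 0.28). Klf6 had a median of 51.8 FPKM, Klf4 2.61 FPKM (rho 0.34, and 0.30 without cells 7 and 27, just below the limit), Ier5 1.08 FPKM (0.28) and Csrnp1 0.225 FPKM (0.43), while the nuclear receptor gene Nr4a3 was listed at 0 in all cells.

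Of 17 inducible inflammatory genes, 9 could be compared and 3 were at rho 0.3 or more (median 0.25). Cxcl2, a neutrophil chemokine, had a median of 194 FPKM and rho 0.38, but 0.58 in cells 0 to 19 and -0.01 in cells 20 to 36. Ccl2 had a median of 1.39 FPKM and rho 0.25. Of 21 related leucine zipper genes, 8 could be compared and 2 were at rho 0.3 or more, Fosl2, another Fos-family gene (0.40), and Atf4, of the integrated stress response (0.36). Cebpb and Maf, factors of myeloid and macrophage identity, had medians of 93.1 and 48.1 FPKM and rho of 0.15 and 0.08. Fosl1 and Batf2 were listed at 0 in all cells.

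In the remaining lists no gene that could be compared, being detected in at least 10 cells, was at rho 0.3 or more. Among 22 kinases and factors upstream of the 10 genes, none was detected in 19 cells, and the 9 compared had a median rho of 0.01. The MAP kinase genes Mapk3 and Mapk14 had rho 0.01 and 0.14, Nfkb1 0.20 and Map2k1 -0.21. In the family of Btg2 and the CCR4-NOT complex 3 genes were compared. Btg1, the closest relative of Btg2, was far more even, with a median of 125 FPKM and detection in 35 cells, and had rho -0.07, and Tob2 had rho 0.20. Tob1 was detected in 5 cells.

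The heat shock genes compared had a rho with the score of at most 0.19. Of 13 genes, 7 were compared, with a median rho of 0.01. The rest of the 13 were detected in too few cells to be compared, so nothing is said of them. Those named next had the highest medians of the list, and the other heat shock genes are not reported singly. Hsp90ab1, Hspa8 and Hspa5, all chaperones, had medians of 347, 218 and 47.1 FPKM and rho of 0.19, 0.05 and 0.12. The 11 broadly expressed control genes that could be compared had a median rho of -0.15. Actb, Eef1a1 and B2m had medians of 10431, 891 and 578 FPKM and rho of -0.19, -0.22 and 0.04, and Tuba1b had 0.21.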

How the data were processed

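FPKM values were deposited by the authors for 23947 genes in each of 37 cells. STAR, Cuffnorm and mouse build mm9 are named per the submitters' processing notes, without versions or settings. Per the labels' protocols, libraries of polyadenylated RNA came from sorted cells by way of a Fluidigm C1 platform and the Nextera XT kit. The sort gate is not stated in the labels, and 2 collagenases are named without saying which was used for these cells.

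Columns were matched to cells by title. FPKM were used as deposited, or as log2(FPKM + 1). Correlations are Spearman rho or Pearson r over cells, computed with Python 3.11.15, pandas 2.3.3, numpy 2.4.6 and scipy 1.17.1 in a procedure tested on simulated data. With 1 group and no animal named, no test between groups was made. FPKM depend on the other transcripts of a cell, so values rescaled to 1000000 per cell were an alternative. The number of fragments is unknown, and no interval for a single FPKM value is given.

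The 21 lists held 209 genes, of which 206 were in the table. Named genes were all 10 members; from each of 8 related lists the 3 with the highest median, the 2 with the highest rho to the score and those at 0 in all cells; the 10 most and 5 least similar genes; and the 2 most similar to each member. A few genes that this rule names are not reported here. The members and lists were chosen with earlier results of these data known. Promoters came from a RefSeq table of build GRCm38.p6, which is not the build of the expression values.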

Additional observations from a re-analysis of the deposited data

How the results depend on the processing

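At 5 FPKM, and at 10 FPKM (a threshold chosen after seeing the data), 5 of the 10 genes were detected in at least 19 cells, and at 5 FPKM 89.2% of cells held both a Fos and a Jun gene. In cells 0 to 19 and cells 20 to 36 alone, settings also chosen after seeing the data, 17 and 11 genes had a rho of 0.5 or more with the score, of which 4 and 1 were among the 6 found over all cells; fewer cells and genes entered each. In the other 27 settings of the main results the value stayed within its limits: counts within 1.5 times, shares within their interval, levels and mean rho within 1 SD. The SD limits are wide, so staying within them says little. The SD was 0.19 over pairs for a mean rho of 0.21, and 2.02 on the log2 scale over cells for the summed level. The mean rho ranged from 0.13 to 0.27 over settings. The medians of all 10 genes stayed within 1 SD over cells in each of 3 settings, a wide limit for genes that vary this much, and several moved by over 1.5 times. That of Jun fell from 19.6 to 7.98 FPKM without cells 7 and 27, and that of Ier3 from 1.86 to 1.12 FPKM without the 3 cells of FPKM sum over 1000000. Rescaling to 1000000, which raises most cells by construction, took Fos from 199.8 to 699, Junb from 98.7 to 244, Fosb from 2.16 to 8.28, Jund from 2.99 to 10.3, Egr1 from 2.24 to 5.14, Btg2 from 12 to 28, Ier2 from 0.315 to 0.906, Ier3 from 1.86 to 3.0 and the summed level from 870 to 2158, but Atf3 only from 16.7 to 17.6 and Jun from 19.6 to 25. No paired analysis was possible because there is 1 group. The number of cells, 37, limits the precision of every share, and how many fragments lie behind a value near 1 FPKM is unknown.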

Other observations

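The highest values of the 10 genes lay in few cells. Cell 2 held the highest value of 5 of them (Fosb, Junb, Jund, Ier2 and Ier3) and cell 15 that of 3 (Jun, Egr1 and Btg2), with Fos highest in cell 26 and Atf3 in cell 12. Of the 2378 other genes detected in at least 10 cells, 6.60% were highest in cell 2 and 6.73% in cell 15. After rescaling each cell to 1000000, cell 2 still held 4 of the 10 highest values and cell 15 held 3, beside 3.11% and 4.67% of the other genes, and Ier3 was then highest in cell 29. Cell 24, with the largest FPKM sum, held the highest value of 221 other genes and of none of the 10.

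Cell 15 also held the highest value of 7 of the 19 genes nearest to single members, namely Wnk1, Nfkbiz, F13a1, Nufip2, Tet3, Gda and Impact. This count was made after the values were seen. For Nufip2 and Impact it is partly fixed by the choice of genes, since Jun and Btg2, whose neighbours they are, are highest in that cell. The others are neighbours of Fos, Fosb or Ier3, which are highest in other cells. Cells 2 and 15 differed in their make-up: cell 2 had Ier2 at 2897 FPKM and Btg2 at 12 FPKM, while cell 15 had Ier2 listed at 0 and Btg2 at 2298 FPKM.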
